A study of Homo sapiens with 6 samples.

Results

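The genes described here are 37 genes of glucose uptake, glycolysis and the transcriptional response to low oxygen, chosen by symbol from a given list of names. All 37 were among the 17269 genes of the deposited table, and all 37 passed the filter on low counts that left 13104 genes for testing. They comprise 2 glucose transporters, 17 glycolytic enzymes, 5 regulators of glycolytic flux, 9 hypoxia-induced genes outside glycolysis, and 4 genes that form or degrade the hypoxia-inducible transcription factor. The cells were HCT116, an established human colorectal carcinoma line, in 3 control libraries (shCtrl, whose genotype the labels give as WT) and 3 libraries with a short hairpin against the serine protease PRSS22 (shPRSS22, genotype PRSS22 knockdown). Poly(A) RNA was sequenced from cells of both groups, which shared 1 culture protocol in RPMI1640 medium with serum and CO2; the labels name no low-oxygen treatment, hairpin sequence or time after its delivery. Nothing in the labels says that the 3 libraries of a group were separate cultures, so p-values measure the spread between these libraries, which may be technical.

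In normal oxygen, prolyl hydroxylases such as EGLN1 and EGLN3 mark the subunits HIF1A and EPAS1, and VHL, the recognition subunit of a ubiquitin ligase, directs the marked protein to degradation. When oxygen falls the subunits persist, pair with ARNT and switch on genes that raise glucose uptake, glycolysis, blood vessel growth and acid export. HIF subunits are controlled mainly at the level of protein stability, which RNA levels do not measure. Colorectal carcinoma cells also run glycolysis at a high rate in normal oxygen, and many enzymes of the pathway are encoded by several genes, called isoenzymes, whose products differ in regulation.

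Library totals lay between 14920523 and 15466647 counts. PRSS22, the targeted gene, was read first. In CPM, counts per 1000000 scaled counts of tested genes, and with libraries always given in the order of replicates 1, 2 and 3, it stood at 10.1, 9.38 and 10.1 in shCtrl and at 3.09, 3.16 and 2.61 in shPRSS22. Every knockdown library was below every control (log2 fold change -1.74, SE 0.135; edgeR, adjusted p = 4.78e-12). The labelled cell type was checked on 10 epithelial markers, 9 of them high enough to test, whose summed level was 4711 to 4881 CPM in shCtrl and 4677 to 4976 CPM in shPRSS22. Fibroblast markers summed to 30.2 to 37.9 CPM in shCtrl and 34.5 to 40.9 CPM in shPRSS22, with COL1A1 the most abundant at 24.2 to 33.5 CPM, and only 2 of 8 were high enough to test. Immune markers summed to 15.5 to 17.1 and 17.4 to 20.8 CPM, mostly CD68, and endothelial markers to 1.12 to 2.25 and 1.67 to 2.3 CPM, with CDH5 at 0 in all libraries. In bulk RNA, fewer cells of a type and less RNA per cell cannot be told apart.

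HIF binds DNA at a short core, ACGTG or its variant GCGTG, in the promoters and enhancers of its targets. RefSeq promoter windows of GRCh38.p14, from 250 bases before to 50 after a gene start, were available for 32 of the 37 genes, with 57 windows in all because some genes have several starts. Searched on both strands, ACGTG was in 23 of these 57 windows (40.4%) and in 21.4% of all 35116 windows of the table; GCGTG was in 24 (42.1%) and in 36.5%. Among the 15559 windows of tested genes the shares were 25.0% for ACGTG and 48.2% for GCGTG, so for GCGTG the members were below that background and above the other. Per gene, 19 of 32 members (59.4%) had ACGTG in at least 1 window, against 32.0% of the 10570 tested genes that have a window. For GCGTG these shares were 62.5% and 58.5%. Members had more windows per gene (57 for 32 genes, against 15559 for 10570), which by itself raises the share with at least 1 match. The longer E-box CACGTG, a site of MYC and MAX family factors, contains ACGTG on both strands and is therefore counted as 2 core matches. It was in 8 member windows (14.0%), in 7.26% of all windows and in 9.11% of the windows of tested genes. The 250 bases before the RefSeq start are printed below for 5 members with contrasting cores and contrasting behaviour in these libraries, chosen after their matches and values were seen. GENCODE v29 gene spans, given for some genes further below, can begin earlier. By those spans the printed ADM, GAPDH and PGK1 stretches lie inside the gene. Capitals mark each match to either core or to the E-box, as it lies on the strand shown; a match on the opposite strand is capitalised as its reverse complement, CACGT or CACGC read from left to right.
LDHA promoter, chr11:18394313-18394562, plus strand: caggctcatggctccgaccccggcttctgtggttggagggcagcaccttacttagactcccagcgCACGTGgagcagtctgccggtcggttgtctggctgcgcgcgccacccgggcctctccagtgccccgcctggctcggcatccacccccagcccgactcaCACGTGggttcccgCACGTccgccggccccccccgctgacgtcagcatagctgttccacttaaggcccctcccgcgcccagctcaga
PGK1 promoter, chrX:78103998-78104247, plus strand: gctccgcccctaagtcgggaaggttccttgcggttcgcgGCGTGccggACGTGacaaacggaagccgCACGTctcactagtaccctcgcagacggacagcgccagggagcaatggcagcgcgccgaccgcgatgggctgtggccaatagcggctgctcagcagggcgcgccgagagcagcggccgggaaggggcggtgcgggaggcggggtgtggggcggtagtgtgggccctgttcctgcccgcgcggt
GAPDH promoter, chr12:6535014-6535263, plus strand: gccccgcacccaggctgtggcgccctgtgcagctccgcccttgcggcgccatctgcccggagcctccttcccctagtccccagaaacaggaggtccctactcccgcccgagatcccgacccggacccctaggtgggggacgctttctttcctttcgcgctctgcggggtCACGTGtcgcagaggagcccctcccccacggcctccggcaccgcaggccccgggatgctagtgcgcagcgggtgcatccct
PFKL promoter, chr21:44299803-44300052, plus strand: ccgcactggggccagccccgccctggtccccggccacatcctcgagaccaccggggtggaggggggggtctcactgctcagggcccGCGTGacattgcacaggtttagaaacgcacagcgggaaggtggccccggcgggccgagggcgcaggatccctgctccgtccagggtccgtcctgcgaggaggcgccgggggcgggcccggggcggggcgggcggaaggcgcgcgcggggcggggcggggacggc
ADM promoter, chr11:10304823-10305072, plus strand: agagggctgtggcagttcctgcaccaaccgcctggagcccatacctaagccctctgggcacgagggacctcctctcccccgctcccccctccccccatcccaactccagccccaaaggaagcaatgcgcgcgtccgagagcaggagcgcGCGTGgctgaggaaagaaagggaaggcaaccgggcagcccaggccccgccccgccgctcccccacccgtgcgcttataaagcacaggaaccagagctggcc
The stretch before the LDHA start with the most cores held 5 ACGTG matches, 4 of them from 2 E-boxes, and that of PGK1 held 2 ACGTG matches and 1 match to GCGTG. GAPDH had 1 E-box, while PFKL and ADM each had a single GCGTG and no match to ACGTG. A match describes these letters only and is not evidence of binding.

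Over the whole group, 12 of 37 members (32.4%) passed an adjusted p of 0.05 in edgeR's quasi-likelihood test, whereas 39.1% of all tested genes did. Higher in shPRSS22 were 4 members, HK1, PFKP, PFKFB3 and VHL (10.8%; 19.9% of all tested genes were called higher). Lower were 8 members, SLC2A1, SLC2A3, PFKL, GAPDH, PGAM1, PFKFB4, ADM and VEGFA (21.6%; 19.3% of all tested genes were called lower). By role, both glucose transporters fell, 2 glycolytic enzymes rose and 3 fell of 17, 1 flux regulator rose and 1 fell of 5, 2 hypoxia-induced genes outside glycolysis fell of 9, and 1 gene rose among the HIF subunits with VHL. Changes were small: 11 of the 12 called members differed by less than 1.5-fold, and the median fold among the called members was 1.14, beside 1.19 for all called genes. The 6 libraries separated by group without overlap for 6 members in the higher direction (16.2%, against 24.2% of all tested genes) and 9 in the lower direction (24.3%, against 24.3%). The median log2 fold change was -0.029 for the 17 glycolytic enzymes and 0.020 for the 9 hypoxia-induced genes outside glycolysis, with -0.0056 for all tested genes; the mean of the 9 hypoxia-induced genes had the opposite sign (-0.038). The plot of fold changes shows each member by role.

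**Figure D1:**
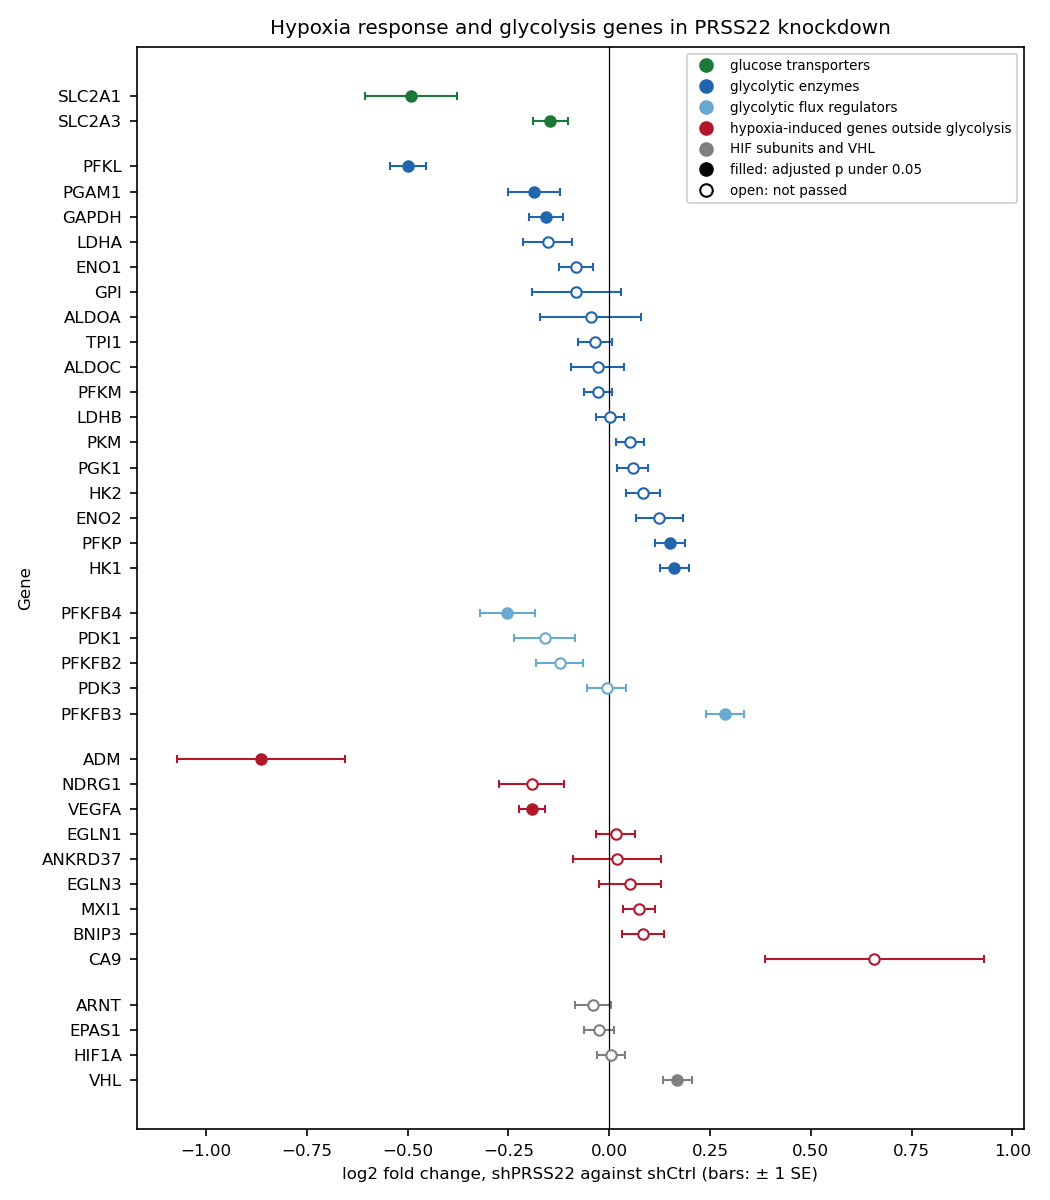
Log2 fold change (shPRSS22 against shCtrl) of the 37 genes with bars of 1 standard error from edgeR, coloured by role; filled points passed an adjusted p of 0.05. Most points lie within 0.25 of 0, and ADM at -0.86 and CA9 at 0.66 lie farthest out, CA9 with an open point.

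The counts, and their place against the background, depended on the setting. Without shPRSS22 replicate 3, 9 members (24.3%; 17.5% of all tested genes) were called higher, the 4 above plus HK2, PGK1, ENO2, BNIP3 and CA9. In the same setting 8 (21.6%; 17.1%) were called lower. Members called lower numbered 5 (13.5%, beside 15.8% of all tested genes) without shCtrl replicate 1 and 4 (10.8%, beside 16.2%) without shCtrl replicate 2. Without shPRSS22 replicate 1 they numbered 5 (13.5%, beside 17.2%). They numbered 10 (27.0%) without shCtrl replicate 3 (16.5% of all tested genes) and without shPRSS22 replicate 2 (17.0%). The same number was called lower when low counts were not filtered (15.1% of all tested genes). With replicate 3 of both groups left out, a setting added after the data were seen, 6 (16.2%, beside 15.9%) were higher and 10 (27.0%, beside 14.8%) lower. With the replicate number as a block in the fit, 6 (16.2%, beside 21.2% of all tested genes) were higher and 13 (35.1%, beside 21.0%) lower. Members were thus called less often than all tested genes in some settings and more often in others. HK1, PFKP, PFKL, PFKFB3, PFKFB4, VEGFA and VHL kept their call in the same direction under all 13 alternative settings.

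Taken one by one, the libraries differed among themselves in these genes. shPRSS22 replicate 3 was the lowest library of its group for 27 of 37 members (73.0%), where it was lowest for 33.5% of all tested genes, and shCtrl replicate 3 was the lowest control for 26 of 37 (70.3%), against 33.8%. Elsewhere the lowest control was replicate 1 for 5 members (32.8% of all tested genes) and replicate 2 for 6 (33.4%), and the lowest knockdown library was replicate 1 for 6 (32.8%) and replicate 2 for 4 (33.7%). Replicate 3 of both groups was thus low for most members, and over all tested genes each library was lowest about equally often. shPRSS22 replicate 1 was above every control for 13 members (36.6% of all tested genes were) and below every control for 15 (37.3%). shPRSS22 replicate 2 was above every control for 14 (36.8%) and below for 9 (37.4%). shPRSS22 replicate 3 was above every control for 6 (37.1%) and below for 23 (38.6%). In counts of members below all controls, replicate 3 stood above its background share and replicate 2 below it.

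**Figure D2:**
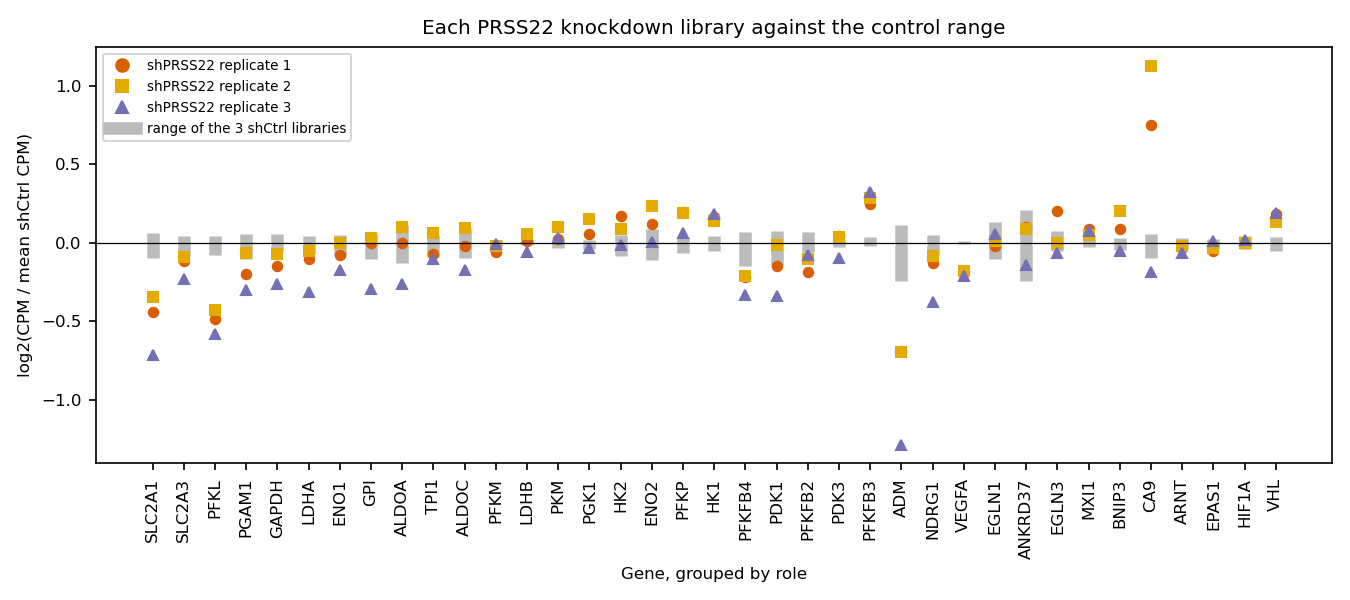
Level of each gene in the 3 shPRSS22 libraries as log2 of CPM over the mean shCtrl CPM; grey bars span the 3 shCtrl libraries, and genes are grouped by role. Triangles (replicate 3) fall below the grey bar for 23 of 37 genes, while circles and squares lie on both sides.

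Glycolytic enzymes and hypoxia-induced genes shared this order of libraries. The mean log2(CPM + 0.5) of the 17 glycolytic enzymes, centred on all 6 libraries, was 0.045, 0.063 and -0.047 in shCtrl and -0.0037, 0.057 and -0.114 in shPRSS22. For the 9 hypoxia-induced genes outside glycolysis it was 0.053, 0.075 and -0.035 in shCtrl and 0.040, 0.067 and -0.200 in shPRSS22. The hypoxia-induced means of shPRSS22 replicates 1 and 2 held opposite moves of single genes. Against the control mean, ADM was at -0.69 and -0.70 there on the log2 scale, and VEGFA at -0.18 in each. CA9, the least abundant member, was at 0.75 and 1.13. In both lists the knockdown means of replicates 1 and 2 lay inside the control range and only that of replicate 3 lay below it. The HIF subunits with VHL showed no such drop, at -0.016, -0.033 and 0.0073 in shCtrl and 0.011, 0.0051 and 0.025 in shPRSS22. Across all tested genes the same mean stayed between -0.0066 and 0.0068.

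Proliferation genes were low in the same libraries. The 20 mitosis genes stood at -0.119, -0.017 and -0.280 in shCtrl and at 0.343, 0.303 and -0.230 in shPRSS22. The 20 DNA replication genes stood at 0.028, 0.0995 and -0.051 in shCtrl and at 0.062, 0.087 and -0.225 in shPRSS22. shPRSS22 replicate 3 was the lowest knockdown library for all 20 genes of each list. In edgeR 19.9% of all tested genes were called higher and 19.3% lower. In the same test 5 of the 20 mitosis genes rose and 0 fell, with a median log2 fold change of 0.31. At an unadjusted p under 0.05 and in DESeq2, 0 mitosis genes fell as well. DESeq2 called 3 of them higher (13.8% of genes with an adjusted p). Of the 20 replication genes 1 rose and 5 fell in edgeR (median -0.021). The part of these proliferation genes in the glycolysis and hypoxia values was not tested. Within groups, the median SD of log2(CPM + 0.5) was 0.064 in shCtrl and 0.085 in shPRSS22 over the 37 members, and 0.130 in shPRSS22 over the 9 hypoxia-induced genes, where tested genes with a mean of at least 10 CPM had 0.052 and 0.058.

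**Figure D3:**
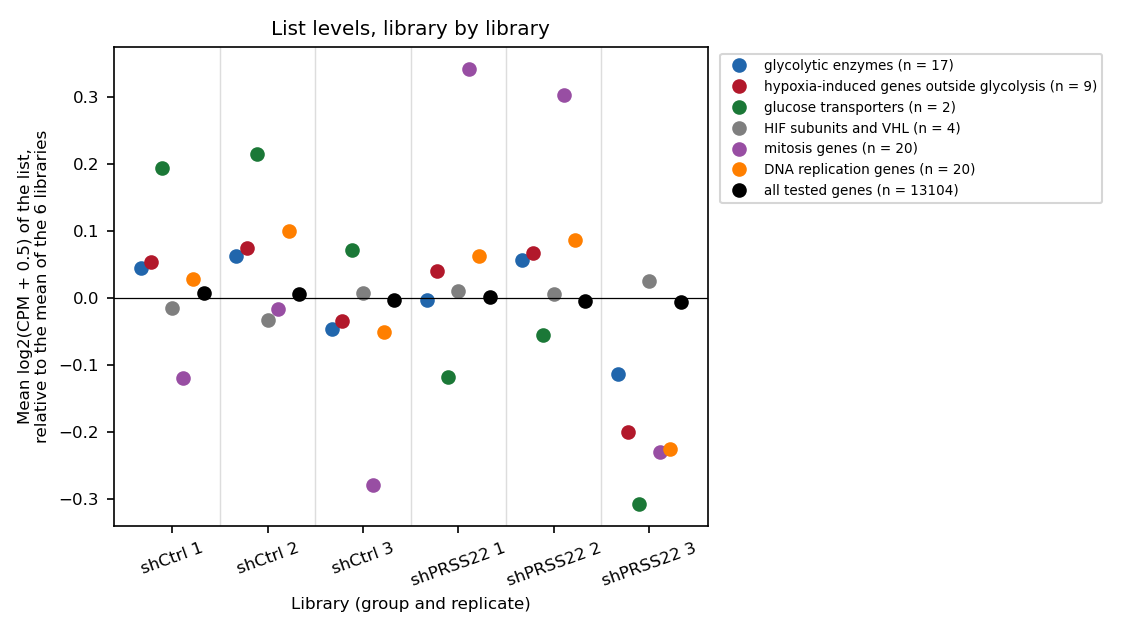
Mean log2(CPM + 0.5) of each list in each library, centred on all 6 libraries; each point is 1 list in 1 library. Points for glycolytic enzymes, hypoxia-induced genes, mitosis and DNA replication genes lie below 0 in replicate 3 of both groups, and all tested genes lie near 0 throughout.

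Glucose enters these cells through facilitative transporters, and both transporters among the 37 genes fell. SLC2A6, a low-abundance relative outside the 37 named after its values were seen, was called higher in edgeR (log2 fold change 0.37, edgeR, adjusted p = 0.0255). It read 5.94, 8.98 and 6.48 CPM in shCtrl and 9.27, 8.35 and 9.99 CPM in shPRSS22, so the groups overlapped. DESeq2 did not call it. SLC2A1, the main transporter of proliferating cells (GLUT1; chr1:42925375-42959176, minus strand, GENCODE v29 on GRCh38), read 660, 675 and 606 CPM in shCtrl and 476, 510 and 395 CPM in shPRSS22. All 3 knockdown libraries were below all controls, replicate 3 by most. The log2 fold change was -0.49 (SE 0.114; edgeR, adjusted p = 0.0306). The call was lost on omitting any 1 control (edgeR, adjusted p = 0.101, 0.0904 and 0.0547 for shCtrl 1, 2 and 3) or shPRSS22 replicate 1 (0.0842). It held in the other 9 settings. Among these were the replicate number as a block (edgeR, adjusted p = 2.58e-11), shPRSS22 replicate 3 left out (1.18e-08) and DESeq2 (DESeq2, adjusted p = 0.000251). Over all 13 the log2 fold change was -0.57 to -0.39. SLC2A3, a transporter of high glucose affinity (GLUT3; chr12:7919230-7936275, minus strand), read 117, 118 and 108 CPM in shCtrl and 105, 107 and 97.6 CPM in shPRSS22. The groups did not overlap, by a narrow margin, and the log2 fold change was -0.15 (SE 0.0427; edgeR, adjusted p = 0.0069). Its call was lost without shCtrl replicate 2 (edgeR, adjusted p = 0.0563) or shPRSS22 replicate 3 (0.0554) and held in the other 11 settings.

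Levels of different genes were compared on the deposited TPM, a scale per transcript length. SLC2A1 was the more abundant transporter, at 335 ± 16.8 TPM in shCtrl and 239 ± 27.8 TPM in shPRSS22 (SD, n = 3), with SLC2A3 at 51.8 ± 2.29 and 47.1 ± 2.00 TPM. The sum of both was 394, 401 and 365 TPM in shCtrl and 301, 307 and 252 TPM in shPRSS22. Every knockdown sum was below every control sum. Isoenzyme shares and sums gave 26 such comparisons; in an exact two-sided permutation test of 3 libraries against 3 the smallest possible p is 0.1, and this sum reached it (adjusted over the 26, 0.217), so no share or sum could pass the threshold.

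Glycolysis begins with hexokinases, which trap glucose by phosphorylation. HK1 (chr10:69269984-69401884, plus strand) read 181, 177 and 170 CPM in shCtrl and 197, 194 and 200 CPM in shPRSS22. All knockdown libraries were above all controls, replicate 3 included, and the log2 fold change was 0.16 (SE 0.0348; edgeR, adjusted p = 0.000382). HK2, the isoenzyme that HIF induces, read 162, 161 and 148 CPM in shCtrl and 177, 167 and 155 CPM in shPRSS22, and these overlapped (log2 fold change 0.08, edgeR, adjusted p = 0.127). Without shPRSS22 replicate 3 the HK2 value was 0.131 and passed (edgeR, adjusted p = 0.010), and it passed with the replicate number as a block (0.0304). HK1 made up 64.0% ± 0.55 of the summed hexokinase TPM in shCtrl and 65.4% ± 1.75 in shPRSS22 (SD, n = 3).

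Phosphofructokinase, the committed step of glycolysis, is assembled from the liver, platelet and muscle type subunits PFKL, PFKP and PFKM. PFKL and PFKP moved in opposite directions, and PFKM did not pass. PFKL (chr21:44300051-44327376, plus strand), whose promoter above holds a single GCGTG, read 101, 99.97 and 92.6 CPM in shCtrl and 69.8, 72.6 and 65.4 CPM in shPRSS22. The knockdown libraries were clearly separate from the controls. The log2 fold change was -0.50 (SE 0.0456; edgeR, adjusted p = 1.84e-10), the smallest p of the 37 genes, and it ranged from -0.53 to -0.46 over the alternatives. PFKP (chr10:3066333-3137712, plus strand) rose: it read 246, 249 and 232 CPM in shCtrl and 277, 276 and 253 CPM in shPRSS22, without overlap (log2 fold change 0.15, SE 0.0371; edgeR, adjusted p = 0.00168). PFKM read 175 to 180 CPM in shCtrl and 171 to 178 CPM in shPRSS22, with a log2 fold change of -0.03 that did not pass (edgeR, adjusted p = 0.547).

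The make-up of phosphofructokinase transcripts differed between the groups while their sum overlapped. Summed TPM was 334, 337 and 324 in shCtrl and 342, 332 and 324 in shPRSS22. PFKL contributed 18.5, 18.1 and 17.6% of it in shCtrl and 12.8, 13.1 and 12.6% in shPRSS22. PFKP contributed 50.7, 50.6 and 49.4% in shCtrl and 57.1, 56.1 and 54.7% in shPRSS22. These shares are ratios within a library and so do not depend on scaling between libraries; neither isoenzyme's groups overlapped (exact permutation p = 0.1 for each, 0.217 adjusted). The PFKM share was 31.7% ± 1.13 and 31.2% ± 1.35 (SD, n = 3).

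**Figure D4:**
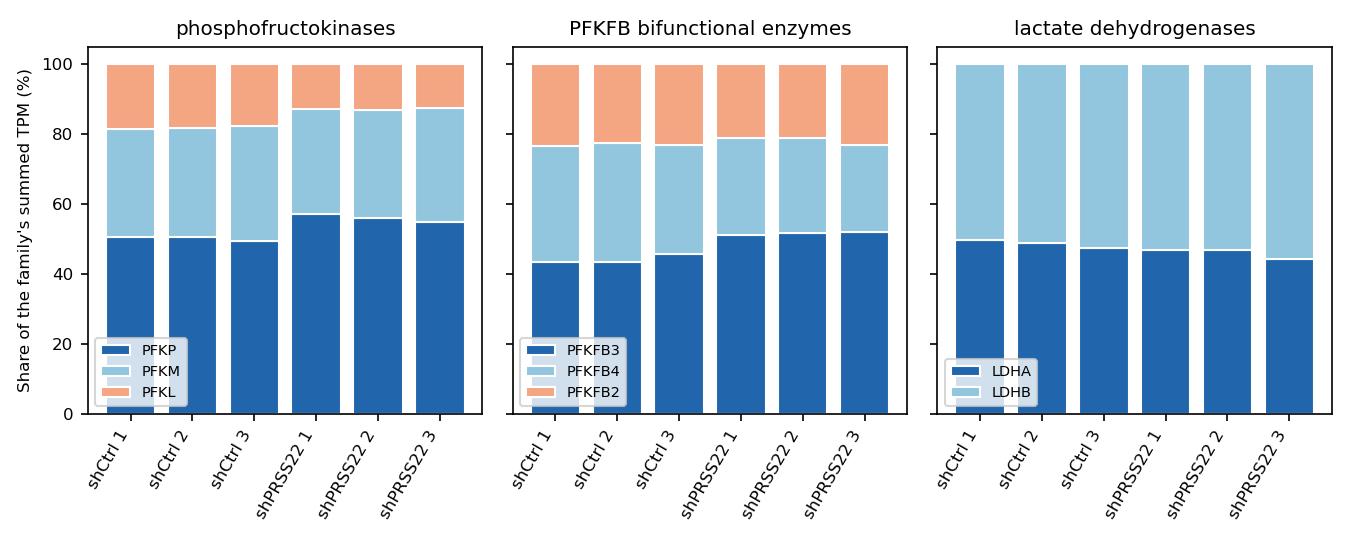
Stacked shares (percent) of each isoenzyme in the summed TPM of its family, 1 bar per library. The PFKL share is 17.6 to 18.5% in shCtrl and 12.6 to 13.1% in shPRSS22, that of PFKFB3 43.4 to 45.8% and 51.2 to 52.1%, and that of LDHA 47.5 to 49.6% and 44.3 to 46.9%.

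Of the enzymes in the middle of the pathway, 2 fell and the others did not pass. GAPDH, glyceraldehyde phosphate dehydrogenase (chr12:6533927-6538374, plus strand) and the most abundant member, read 2661, 2780 and 2576 CPM in shCtrl and 2416, 2549 and 2225 CPM in shPRSS22. The highest knockdown library was just below the lowest control (log2 fold change -0.16, SE 0.0426; edgeR, adjusted p = 0.00425), and in DESeq2 the gene did not pass (adjusted p = 0.0538). This gene is often used as a reference for scaling, and in shPRSS22 it fell by 10.3%. PGAM1, phosphoglycerate mutase (chr10:97426160-97433441, plus strand), read 320, 323 and 290 CPM in shCtrl and 271, 297 and 252 CPM in shPRSS22. shPRSS22 replicate 2 lay above shCtrl replicate 3, so the groups overlapped. The log2 fold change was -0.19 (SE 0.0636, edgeR, adjusted p = 0.0469). The call was lost on omitting control 1 (0.137), control 2 (0.0946) or knockdown library 1 (0.151), under DESeq2 (0.0806) and under upper quartile scaling (0.0839). It held in the other 8 settings.

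GPI, the isomerase after hexokinase, read 390, 393 and 352 CPM in shCtrl and 378, 387 and 308 CPM in shPRSS22; the knockdown values of replicates 1 and 2 were within the controls. The aldolase ALDOA followed the same order, at 1341, 1445 and 1225 CPM in shCtrl and 1337, 1436 and 1112 CPM in shPRSS22. Triose phosphate isomerase, TPI1, read 420 to 463 CPM and 417 to 466 CPM, and ALDOC, the minor aldolase, 92.7 to 106 CPM and 87.6 to 106 CPM. None of these 4 passed, with log2 fold changes of -0.08, -0.05, -0.03 and -0.03 in the order named. The values of GPI, ALDOA and ALDOC turned positive without shPRSS22 replicate 3. GPI passed only with the replicate number as a block (edgeR, adjusted p = 0.0272).

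PGK1, phosphoglycerate kinase, whose promoter above holds 2 ACGTG matches, read 591, 591 and 567 CPM in shCtrl and 605, 647 and 569 CPM in shPRSS22 (log2 fold change 0.06; edgeR, adjusted p = 0.233), and passed without shPRSS22 replicate 3 (0.0251). The enolase ENO1 read 2110 to 2311 CPM in shCtrl and 1979 to 2225 CPM in shPRSS22 (-0.08; edgeR, adjusted p = 0.119). ENO2, the neuronal type enolase, read 134, 128 and 118 CPM in shCtrl and 138, 149 and 127 CPM in shPRSS22 (0.12; edgeR, adjusted p = 0.117). ENO1 passed without shCtrl replicate 3 (0.0488) or shPRSS22 replicate 2 (0.0145). ENO2 passed without shCtrl replicate 1 (0.0303), shPRSS22 replicate 3 (0.00387) or replicate 3 of both groups (0.0332) and when low counts were not filtered (0.00549). Both passed with the replicate number as a block (edgeR, adjusted p = 0.0124 for ENO1 and 0.00713 for ENO2). ENO1 held 95.9% ± 0.14 of enolase TPM in shCtrl and 95.4% ± 0.09 in shPRSS22, so ENO2 is a small part of the total in both. PKM, pyruvate kinase, read 1571 to 1631 CPM in shCtrl and 1634 to 1721 CPM in shPRSS22, without overlap but without passing (0.05; edgeR, adjusted p = 0.265).

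Lactate dehydrogenase converts pyruvate to lactate, and its LDHA subunit is a standard HIF target while LDHB is not. LDHA, whose promoter above has the most cores of those printed, read 1388, 1375 and 1284 CPM in shCtrl and 1255, 1300 and 1086 CPM in shPRSS22. shPRSS22 replicate 2 reached above the lowest control and replicate 3 lay well below (log2 fold change -0.15, SE 0.0617, edgeR, adjusted p = 0.0775). LDHA passed without shCtrl replicate 3 (0.033), shPRSS22 replicate 2 (0.0472) or replicate 3 of both groups (0.042). It also passed when low counts were not filtered (0.000219) and with the replicate number as a block (0.000149). LDHB read 722, 739 and 731 CPM in shCtrl and 735, 758 and 701 CPM in shPRSS22, a log2 fold change of 0.0020 (SE 0.0346). LDHA made up 49.6, 48.9 and 47.5% of lactate dehydrogenase TPM in shCtrl and 46.7, 46.9 and 44.3% in shPRSS22. Every knockdown share was below every control share (exact permutation p = 0.1, 0.217 adjusted). Summed over all 17 enzymes, glycolytic transcripts took 1.44, 1.47 and 1.37% of all TPM in shCtrl and 1.39, 1.41 and 1.28% in shPRSS22, ranges that overlapped.

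The PFKFB enzymes make and break the small sugar phosphate that activates phosphofructokinase, and 2 of them moved in opposite directions. PFKFB3, the isoenzyme with the strongest kinase bias (chr10:6144934-6254644, plus strand), read 50.6, 48.8 and 48.6 CPM in shCtrl and 58.7, 60.3 and 61.7 CPM in shPRSS22. The groups were well apart, and replicate 3 was the highest of all (log2 fold change 0.29, SE 0.0481; edgeR, adjusted p = 1.5e-05). PFKFB4 (chr3:48517684-48562015, minus strand) read 32.2, 32.1 and 27.7 CPM in shCtrl and 26.4, 26.5 and 24.3 CPM in shPRSS22, also without overlap (-0.25, SE 0.0675; edgeR, adjusted p = 0.00328). Both are known as HIF targets. PFKFB2 read 37.4 to 40.8 CPM in shCtrl and 34.1 to 36.8 CPM in shPRSS22, which did not pass (-0.12; edgeR, adjusted p = 0.0879). Of the family's TPM, PFKFB3 took 43.4, 43.5 and 45.8% in shCtrl and 51.2, 51.7 and 52.1% in shPRSS22, and PFKFB4 33.3, 34.1 and 31.3% and 27.6, 27.4 and 24.9%, while the sum was 46.1 ± 1.70 and 48.2 ± 1.05 TPM (SD, n = 3).

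PDK1 and PDK3 are kinases that switch off pyruvate dehydrogenase and so keep pyruvate from the mitochondria. PDK1 read 49.9, 50.5 and 43.5 CPM in shCtrl and 43.4, 47.5 and 37.9 CPM in shPRSS22. The groups overlapped and the gene did not pass (log2 fold change -0.16, edgeR, adjusted p = 0.109). PDK1 did pass without shCtrl replicate 3 (0.0178) or shPRSS22 replicate 2 (0.0084), when low counts were not filtered (0.0159) and with the replicate number as a block (0.0101). PDK3 read 61.0 to 63.0 CPM and 58.1 to 64.0 CPM, with a log2 fold change of -0.0064.

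Among the hypoxia-induced genes outside glycolysis, 2 secreted factors fell. ADM, which encodes the vasodilator peptide adrenomedullin (chr11:10304680-10307397, plus strand), read 78.0, 77.1 and 60.8 CPM in shCtrl and 44.7, 44.4 and 29.5 CPM in shPRSS22. Every knockdown library was below every control, and within each group replicate 3 was lowest. Relative to the control mean, the log2 differences were -0.69, -0.70 and -1.29 in replicates 1 to 3. The fitted log2 fold change was -0.86 (SE 0.209; edgeR, adjusted p = 0.0359): the level fell by 45.0%. The call was lost on omitting control 1 (0.114), control 2 (0.11), knockdown library 1 (0.0738) or knockdown library 2 (0.0751), and when low counts were not filtered (0.0507). It held in the other 8 settings. Among these were the replicate number as a block (edgeR, adjusted p = 4.98e-12), replicate 3 of both groups left out (5.8e-10) and DESeq2 (DESeq2, adjusted p = 0.000863). Over all 13 the log2 fold change was -0.97 to -0.69.

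VEGFA, the growth factor for blood vessels (chr6:43770184-43786487, plus strand), read 286, 283 and 283 CPM in shCtrl and 250.5, 250.3 and 246 CPM in shPRSS22. The change was small and even: the 3 libraries of each group lay close together, and replicate 3 did not stand apart. The log2 fold change was -0.19 (SE 0.0322; edgeR, adjusted p = 1.59e-05), between -0.20 and -0.18 over the alternatives. ADM and VEGFA thus differed in size and in spread between libraries.

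CA9, carbonic anhydrase IX, is often used as a marker of HIF activity and was the least abundant member. Its counts were 22, 20 and 22 in shCtrl and 37, 47 and 19 in shPRSS22, or 1.47, 1.32 and 1.45 CPM and 2.38, 3.09 and 1.24 CPM. Replicates 1 and 2 of the knockdown were above all controls and replicate 3 was below all of them. The log2 fold change of 0.66 (SE 0.271) did not pass (edgeR, adjusted p = 0.0538); without shPRSS22 replicate 3 it was 0.946 (0.00312), and it passed without replicate 3 of both groups (0.0102) and when low counts were not filtered (0.0314).

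NDRG1, a growth-arrest gene that HIF induces and one of the most abundant members, read 1577, 1611 and 1475 CPM in shCtrl and 1420, 1464 and 1196 CPM in shPRSS22. The groups did not overlap, yet the spread of the knockdown libraries was wide and the log2 fold change of -0.19 (SE 0.0811) did not pass (edgeR, adjusted p = 0.113). It passed without shPRSS22 replicate 3 (-0.108, 0.0286) or replicate 3 of both groups (-0.142, 0.0117), when low counts were not filtered (4.45e-05) and with the replicate number as a block (1.45e-05). BNIP3, a mitophagy receptor, read 60 to 63.2 CPM in shCtrl and 59.9 to 71.3 CPM in shPRSS22 (0.08; edgeR, adjusted p = 0.214), and passed without shPRSS22 replicate 3 (0.0239). ANKRD37, EGLN1, EGLN3 and MXI1, a small ankyrin protein, a pair of oxygen-sensing hydroxylases and a MYC antagonist, had log2 fold changes of 0.02, 0.02, 0.05 and 0.07 that did not pass. EGLN1 read 90.9 to 107 CPM in shCtrl and 96.2 to 101 CPM in shPRSS22, and EGLN3 19.2 to 20.9 CPM and 19.0 to 22.9 CPM. MXI1 stood at 97.2 to 102 CPM and 103 to 106 CPM, without overlap, and ANKRD37 at 9.38 to 12.8 CPM and 10.1 to 11.9 CPM.

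**Figure D5:**
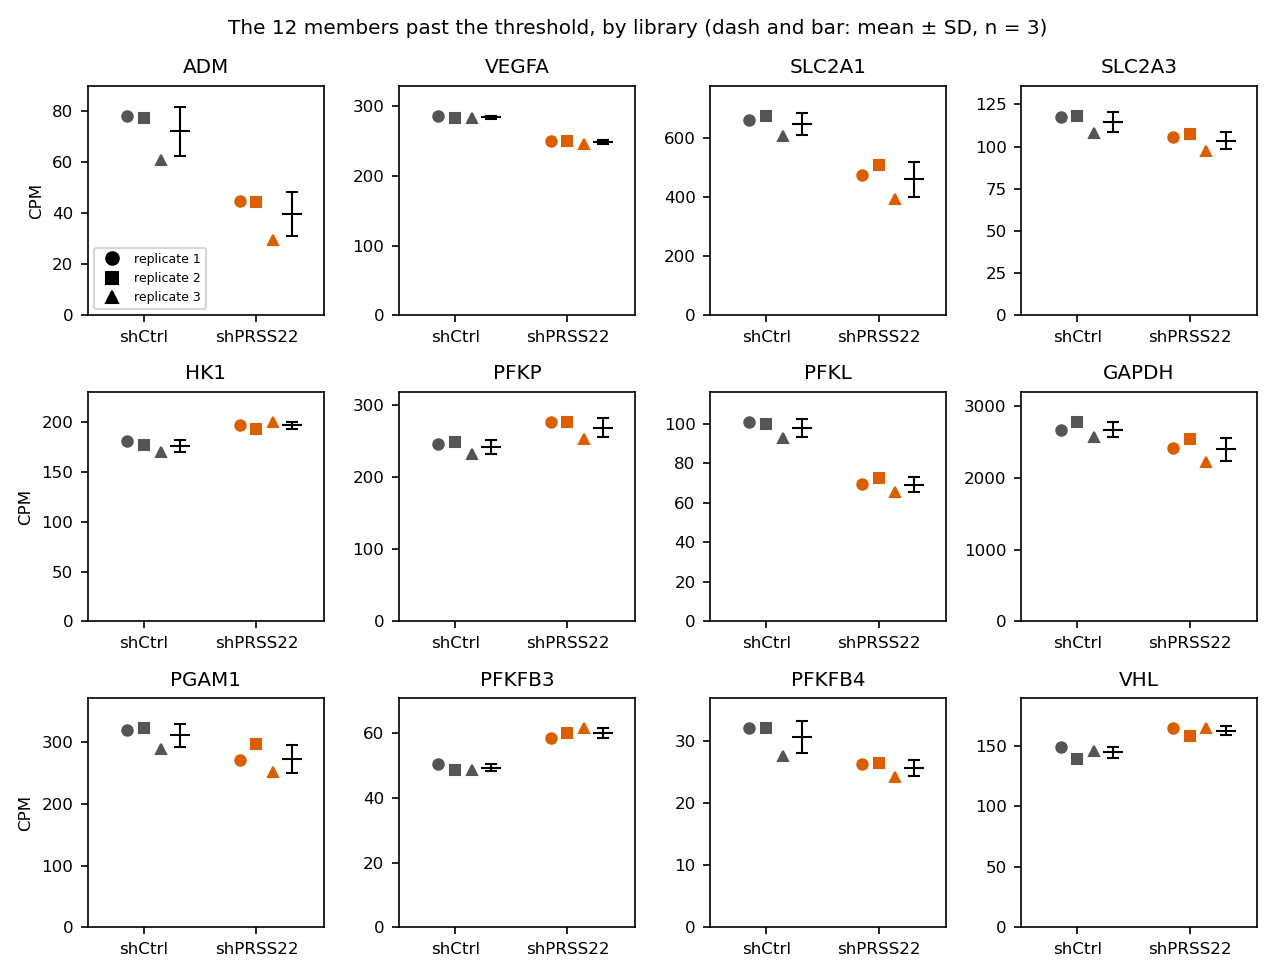
CPM of the 12 members past the threshold in each library, with symbols for replicates and a dash with bars for the mean and SD of 3 libraries; every axis starts at 0. ADM and SLC2A1 are lowest in shPRSS22 replicate 3 (29.5 and 395 CPM), VEGFA and HK1 are tight within each group, and the groups of PGAM1 overlap.

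The HIF subunits themselves did not pass. HIF1A read 184, 189 and 195 CPM in shCtrl and 189, 189 and 192 CPM in shPRSS22, all knockdown values inside the control range (log2 fold change 0.0049, SE 0.0341; edgeR, adjusted p = 0.927). EPAS1, the second oxygen-regulated subunit, read 119, 123 and 124 CPM in shCtrl and 117, 119 and 123 CPM in shPRSS22 (-0.025, SE 0.0374; adjusted p = 0.63). ARNT, their partner, read 69.8, 66.8 and 68.5 CPM in shCtrl and 66.7, 67.4 and 65.2 CPM in shPRSS22 (-0.04, SE 0.0442; adjusted p = 0.496). These 3 genes had narrow spreads, and replicate 3 was not low for HIF1A or EPAS1. VHL (chr3:10141008-10152220, plus strand) rose: it read 149, 139 and 146 CPM in shCtrl and 164, 158 and 165 CPM in shPRSS22, without overlap (0.17, SE 0.0361; edgeR, adjusted p = 0.000353). On the TPM scale HIF1A stood at 83.0 ± 2.87 in shCtrl and EPAS1 at 40.8 ± 1.12 (SD, n = 3), so HIF1A was the more abundant subunit RNA.

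Other genes of the response were read from lists of genes outside the 37. Of 33 further hypoxia-induced genes, 30 were tested, and 9 of these rose and 8 fell. Of all tested genes, 19.9% were called higher and 19.3% lower. The median log2 fold change of the list was -0.056. STC2, a secreted glycoprotein hormone, rose from 253.7 ± 1.6 to 377.4 ± 1.12 CPM (0.57, SE 0.032), and the transferrin receptor TFRC from 249.2 ± 8.93 to 337 ± 29.5 CPM (0.43). WSB1, a ubiquitin ligase component, fell by 0.31 on the log2 scale. Of 14 further HIF regulators and cofactors, 13 were tested, and 4 rose and 4 fell (19.9% and 19.3% of all tested genes), with a median of 0.0095. Those that rose most were ELOC (0.38), the elongin C subunit of the VHL ligase, and SIAH2 (0.33), a ligase for prolyl hydroxylases. ARNT2, a relative of ARNT (-0.36), and P4HTM, a transmembrane prolyl hydroxylase (-0.29), fell.

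Of 29 further glycolytic isoenzymes and side-branch enzymes, only 14 had enough counts to test. In edgeR 3 rose and 0 fell, where 19.9% of all tested genes were called higher and 19.3% lower, so the rises were near the background share. At an unadjusted p under 0.05 and in DESeq2, 0 fell as well. DESeq2 called 2 higher (13.8% of genes with an adjusted p). The median log2 fold change was 0.027. HKDC1, an additional hexokinase, rose from 15.5 ± 0.496 to 23.2 ± 1.46 CPM (0.58, SE 0.0758; edgeR, adjusted p = 2.78e-07). TIGAR, a phosphatase that opposes PFKFB kinases and is a p53 target, rose from 37.4 ± 3.47 to 48.8 ± 5.06 CPM (0.38, SE 0.0757). Of 11 further genes of pyruvate entry and pyruvate dehydrogenase, 2 rose and 0 fell in edgeR (19.9% and 19.3% of all tested genes), with a median of 0.056. The counts were the same at an unadjusted p under 0.05 and in DESeq2. MPC1, a subunit of the mitochondrial pyruvate carrier, rose from 33.9 ± 2.59 to 44.7 ± 0.705 CPM (0.40). PDP1, the phosphatase that opposes the PDK kinases, rose by 0.13.

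In the authors' deposited table, 4 members were higher (9.69% of its genes with a q-value were) and 6 lower (8.89%) at a q-value under 0.05. These were the same members as above except GAPDH (q = 0.0715 in the authors' deposited table) and PGAM1 (0.106), which did not pass there. DESeq2, run here as an alternative, also called 4 higher (13.8% of genes with an adjusted p) and 6 lower (12.9%).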

How the data were processed

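The deposited table gives 6 libraries by gene. The submitters' processing notes name the build GRCh38.p13 and, without roles or order, RSEM 1.3.1, HISAT2 2.2.1, R 4.3.1, FastQC 0.12.1, DESeq2 1.4.5 and Bowtie2 2.3.4.3. Per the file headers, the authors deposited read counts, which carry decimals and so are estimated counts, TPM values, and their own log2 fold change with a q-value (an adjusted p-value); 12 other columns of per-library values were not used. Estimated counts split reads between near-identical genes: 8 members carried decimals in some library (SLC2A3, GPI, PFKM, ALDOA, PGAM1, ENO1, PFKFB4 and ANKRD37) and are less certain.

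Estimated counts were rounded and tested with edgeR 4.0.16 in R 4.3.3 (TMM, filterByExpr, robust glmQLFit, glmQLFTest; two-sided, Benjamini-Hochberg adjusted over 13104 genes, threshold 0.05). The standard error is the log2 fold change over the square root of F. CPM uses TMM-scaled totals. On simulated counts for this comparison, with 12966 genes past the filter, 87.8% of genes changed by 0.5 on the log2 scale and 93.8% of those changed by 1 were recovered. Among unchanged genes 7 were called. Unlike these data, the simulation had few changed genes (98 and 97) and no effect shared by same-numbered libraries. Recovery of members with a wide spread between libraries may therefore be lower. Replicate pairs differed beyond sampling noise (chi-square 1.80 to 3.05 per gene), and each library counted as 1 replicate. Alternatives were scaling, filter, DESeq2 1.42.0, a replicate block and each library left out. Members, lists and the rule for named genes (every member past the threshold, the HIF genes, CA9 and VEGFA in full; per further list up to 2 rises and 2 falls at a mean CPM of at least 5) were chosen with earlier results of these data known; the other members given per library, and the alternatives named beside them, were picked after their values were seen. Strand is not stated in the sources used here, so reads of antisense genes cannot be told apart. 1 gene that the rule names is not reported here.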

Additional observations from a re-analysis of the deposited data

How the results depend on the processing

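Of the 12 members past the threshold, 7 kept their call under all 13 settings and none changed sign; SLC2A1, SLC2A3, GAPDH, PGAM1 and ADM lost it in at least 1. Of the 25 that did not pass, 15 never passed. Leaving out 1 library at a time gave 4 to 9 members higher and 4 to 10 lower, and 2161 to 2484 genes higher and 2079 to 2271 lower. DESeq2 called 1759 genes higher and 1637 lower, both below the 2603 and 2523 of edgeR. The cause was not tested. Same-numbered libraries correlated in their deviations from group means by 0.0357, 0.0501 and 0.104 over genes, the last being the largest of all pairs. shCtrl replicate 2 correlated slightly better with shPRSS22 replicate 1 (0.0618) than with shPRSS22 replicate 2. These values do not decide whether the numbers are a pairing, and the labels state none. The reported fit has no replicate term, so any effect shared by same-numbered libraries widens its spread. With the replicate number as a block, 6 members were higher (16.2%; 21.2% of all tested genes) and 13 lower (35.1%; 21.0%); it gained HK2 (adjusted p = 0.0304), GPI (0.0272), ENO1 (0.0124), ENO2 (0.00713), LDHA (0.000149), PDK1 (0.0101) and NDRG1 (1.45e-05) and lost none. Over the alternatives, members called in either direction made up 21.6 to 51.4%, beside 26.7 to 42.2% of all genes. The median of the glycolytic list lay between -0.081 and 0.032 over the alternatives, and that of the hypoxia-induced list between -0.024 and 0.072. These moves were less than the larger within-group SD of each list mean (0.086 and 0.147). Both SDs exceed the medians themselves, so this comparison does not show that either sign is stable. Leaving out 1 library at a time took 9 log2 fold changes near 0 across 0: GPI (-0.139 to 0.016), ALDOA (-0.123 to 0.053), ALDOC (-0.091 to 0.039), LDHB (-0.021 to 0.032), PDK3 (-0.030 to 0.038), ANKRD37 (-0.085 to 0.136), EGLN1 (-0.032 to 0.089), EGLN3 (-0.032 to 0.107) and HIF1A (-0.015 to 0.030), none of which passed in the reported fit. LDHB (-0.0043) and HIF1A (-0.0017) changed sign under upper quartile scaling, and PDK3 (0.026), ANKRD37 (-0.011) and EGLN1 (-0.024) without replicate 3 of both groups. No scaling moved the median of all genes by over 0.1. Depth limits CA9, at 19 to 47 counts per library.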
